A study of Mus musculus with 4 samples.

Results

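The genes described here are the claudins Cldn1, Cldn2, Cldn3, Cldn4, Cldn7, Cldn8, Cldn12, Cldn15 and Cldn23, and occludin, Ocln. They were chosen by gene symbol in the platform annotation of the array, which gave 10 genes of 18193 and 19 probe sets of 45101. Gene expression was measured on 4 short-oligonucleotide mouse arrays, 1 for each of ileum germ-free, ileum wild type, colon germ-free and colon wild type. Epithelium was isolated by laser capture from 10 µm sections of OCT-embedded gut, the ileum or the proximal colon, of C57/Bl6 mice. Germ-free mice live without microbes, and the wild type mice were the control animals. Each array carried RNA pooled from 4 mice, about 4000 captured cells of each, and the labels mention hematoxylin staining for the germ-free sections only. A pooled array gives no spread between mice.

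Tight junctions seal the space between neighbouring epithelial cells near their apical surface. Claudins are small membrane proteins whose strands form that seal, and the mix of claudins decides which ions pass between the cells. Some, such as claudin-2 and claudin-15, form channels for small cations and water, while others, such as claudin-1, claudin-3, claudin-4 and claudin-8, tighten the barrier. Occludin is a further strand protein that is not itself required for strands to form.

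The arrays carried epithelial markers, and the enterocyte and colonocyte marker sums were highest on the arrays of their own region. All 10 of 10 pan-epithelial markers were above the floor on all 4 arrays, where the floor is the pooled median intensity of 62.4, below which a probe set is not taken as measured. The summed intensity of 13 small intestinal enterocyte markers was 92303 in ileum germ-free, 88942 in ileum wild type, 30681 in colon germ-free and 19239 in colon wild type. That of 12 colonocyte markers was 35526, 35464, 78104 and 80520 in the same order. In colon, 9 of 11 measured enterocyte markers were higher in germ-free than in wild type mice (Fabp6 at 6008 against 767). Of 10 measured colonocyte markers, 8 were lower (Aqp8 at 76.4 against 545). The median log2 difference of colonocyte markers, ileum against colon, was -0.49 in germ-free (11 measured) and -2.12 in wild type mice (10 measured). By this median the contrast was weaker in germ-free mice, but by the sums it was nearly the same in both states. Plasma and B cell markers summed to 8116 in ileum germ-free against 20641 in ileum wild type, and to 5065 in colon germ-free against 11976 in colon wild type. Cldn5, a claudin of endothelial cells, lay between 1.89 and 13.6 on the 4 arrays, below the floor. Of 12 endothelial markers, however, 7 were above the floor on at least 1 array. Kdr, Tek and Egfl7 were above it on all 4, Kdr at up to 326.

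Of the 10 genes, 9 were above the floor on all 4 arrays. The exception was Cldn1, a barrier claudin best known from skin, whose brightest probe set read 48.1 in ileum germ-free, 34.7 in ileum wild type, 67.1 in colon germ-free and 48.1 in colon wild type. It was above the floor on the colon germ-free array alone, and its other 3 probe sets on none. Cldn1 was therefore at the lower edge of what these arrays measure, and the bounds it gives, a log2 difference of at least 0.10 for colon germ-free against colon wild type and of at most -0.10 for ileum against colon in germ-free mice, are not read further.

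**Figure D1:**
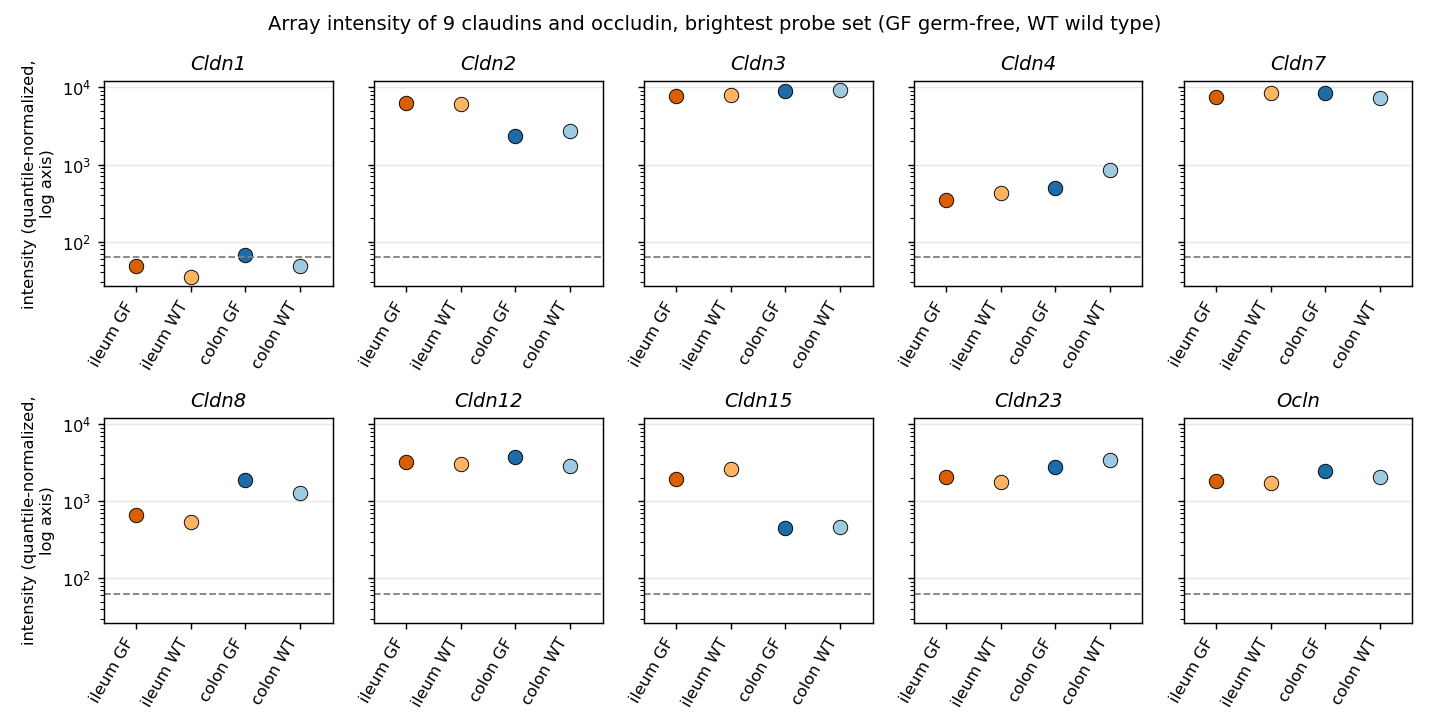
Quantile-normalized intensity (log axis) of the brightest probe set of each of the 10 genes on the 4 arrays, 1 point per array, with the floor of 62.4 as a dashed line. Cldn15 and Cldn2 sit higher on both ileum arrays, Cldn8 sits higher on both colon arrays, and Cldn1 lies around the floor. Intensities are compared across arrays within a gene, not between genes.

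The ileum and the colon differed most in Cldn15, Cldn8 and Cldn2. Cldn15, which forms a sodium channel that mice need for normal growth of the small intestine, was over 4-fold higher in ileum in both states, and Cldn2, a cation and water channel claudin of intestinal crypts, was over 2-fold higher. Cldn8, a claudin of the sodium-absorbing distal epithelia, was over 2-fold lower in ileum, again in both states. Cldn4 and Cldn23 were also lower in ileum, and Cldn3, Cldn7, Cldn12 and Ocln differed less by their brightest probe sets. Since the germ-free and the wild type comparison share no array, the regional difference was measured in 2 separate pairs. The pairs differ in microbial state, so an SD over them holds any difference between states and is no spread between replicates.

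Cldn15 read 1953 in ileum germ-free and 2604 in ileum wild type, against 448 in colon germ-free and 467 in colon wild type. The 2 ileum arrays stood apart from the 2 colon arrays, and the colon arrays were nearly alike. The log2 difference, ileum against colon, was 2.12 in germ-free mice (4.36-fold) and 2.48 in wild type mice (5.57-fold), a mean of 2.30 ± 0.25 (SD, n = 2 pairs). Of the 12000 genes measured in the wild type comparison, 131 had a larger value, and of those in the germ-free comparison, 168. Cldn15 has 1 probe set, so no second probe set could be set beside it.

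Cldn2 read 6239 in ileum germ-free and 6085 in ileum wild type, against 2376.5 in colon germ-free and 2707 in colon wild type. The log2 difference was 1.39 in germ-free mice (2.63-fold) and 1.17 in wild type mice (2.25-fold), a mean of 1.28 ± 0.16 (SD, n = 2 pairs). This rests on the brighter of 2 probe sets. The dimmer one read 76.6 in ileum germ-free, 110 in ileum wild type, 84.2 in colon germ-free and 104 in colon wild type, and its log2 differences of -0.14 in germ-free and 0.09 in wild type mice show no such separation. With the mean of both probe sets the regional log2 difference of Cldn2 was 0.63 in either state, under 2-fold.

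The stretches of 250 bases before the annotated gene start are shown for the 2 claudins higher in ileum, Cldn15 and Cldn2, for Cldn4, which was lower there, and for its chromosomal neighbour Cldn3, which differed little. They are from RefSeq, assembly GRCm38.p6, in a table of such windows that matched 8 of the 10 symbols, all but Cldn8 and Cldn23. The Cldn15 window is chr5:136967619-136967868 (plus strand), that of Cldn2 chrX:139800558-139800807 (plus strand), that of Cldn4 chr5:134946935-134947184 (minus strand) and that of Cldn3 chr5:134985964-134986213 (plus strand). Sequences run 5′ to 3′ along the gene, and capitals mark matches, on either strand, to 1 of 6 motifs searched.
Cldn15: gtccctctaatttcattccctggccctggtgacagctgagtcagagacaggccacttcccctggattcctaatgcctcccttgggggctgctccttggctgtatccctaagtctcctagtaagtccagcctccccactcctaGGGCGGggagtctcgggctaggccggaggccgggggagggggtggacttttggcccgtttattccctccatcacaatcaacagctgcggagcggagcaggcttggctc
Cldn2: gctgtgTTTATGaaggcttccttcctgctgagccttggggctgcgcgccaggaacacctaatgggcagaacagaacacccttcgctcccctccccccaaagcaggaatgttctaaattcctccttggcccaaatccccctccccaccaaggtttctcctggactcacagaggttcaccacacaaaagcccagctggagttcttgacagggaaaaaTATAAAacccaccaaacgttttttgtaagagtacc
Cldn4: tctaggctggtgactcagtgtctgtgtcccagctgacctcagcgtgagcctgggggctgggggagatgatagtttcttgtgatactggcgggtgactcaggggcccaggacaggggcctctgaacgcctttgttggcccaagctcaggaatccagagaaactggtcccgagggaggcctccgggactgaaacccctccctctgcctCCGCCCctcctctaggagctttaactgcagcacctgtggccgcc
Cldn3: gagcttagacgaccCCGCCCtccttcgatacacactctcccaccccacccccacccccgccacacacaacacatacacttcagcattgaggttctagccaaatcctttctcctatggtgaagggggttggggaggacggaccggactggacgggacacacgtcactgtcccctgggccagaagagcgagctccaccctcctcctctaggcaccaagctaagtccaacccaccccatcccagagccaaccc
The motifs were TTTATG (Cdx factors, regulators of intestinal identity), GTTAAT (a part of the Hnf1 site), CAAAGTCCA (Hnf4 factors), GATAA (Gata factors), GGGCGG (Sp and Klf factors) and TATAAA (the TATA box). TTTATG and the reverse complement of TATAAA share most letters, but no matches overlapped in these windows. The Cldn2 window held TATAAA at 35 to 30 bases before the start, a motif in 12.4% of all 32851 windows of this length, and TTTATG at 244 to 239 bases before it, a motif in 10.8% of them. Those of Cldn15, Cldn4 and Cldn3 each held 1 GGGCGG or its reverse complement and none of the other motifs, and that motif was in 32.7% of all windows. The Cldn15 window was 60.8% G and C and the Cldn2 window 52%, where the median of all windows was 52.4%. The 2 claudins higher in ileum thus shared no motif of these 6 in this stretch. A match is a run of letters, not a measured binding site.

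Cldn8 read 668 in ileum germ-free and 537 in ileum wild type, against 1897 in colon germ-free and 1274 in colon wild type. Both colon arrays were above both ileum arrays. Cldn8 was 2.84-fold lower in ileum than in colon in germ-free mice and 2.37-fold lower in wild type mice, a mean log2 difference of -1.38 ± 0.18 (SD, n = 2 pairs). Claudin-8 is known to limit the back-leak of sodium where the epithelial sodium channel absorbs it.

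Cldn4, a barrier claudin of mature surface cells, read 343 in ileum germ-free and 429 in ileum wild type, against 491 in colon germ-free and 841 in colon wild type. Cldn23, a claudin of the luminal surface of the colon, read 2043 in ileum germ-free and 1767 in ileum wild type, against 2744 in colon germ-free and 3378 in colon wild type. For both genes the 2 ileum arrays were below the 2 colon arrays, and the gap was wider in wild type mice. Ileum against colon, Cldn4 had a log2 difference of -0.52 in germ-free and -0.97 in wild type mice, and Cldn23 of -0.43 and -0.93 in the same order. The wild type values lay just inside 2-fold.

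The remaining genes were under 2-fold different between the regions in both states. Cldn3 read 7682 in ileum germ-free and 8012 in ileum wild type, against 8951 in colon germ-free and 9145 in colon wild type, and all 4 of its probe sets were lower in ileum in both states, by log2 differences between -0.60 and -0.03, although median scaling gave the brightest 0.03 in germ-free mice in place of -0.22. Cldn7, a claudin found along the lateral membrane as well as at the junction, read 7579 in ileum germ-free and 8360 in ileum wild type, against 8425 in colon germ-free and 7359 in colon wild type. The regional difference of Cldn7 had opposite signs in the 2 states, -0.15 in germ-free and 0.18 in wild type mice, and was 0.09 in germ-free mice with median scaling. Both values were smaller than the SD of 0.36 and 0.34 between probe sets of 1 gene in these comparisons. That SD holds no spread between captures or mice.

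Cldn12, a claudin linked to calcium passage between cells, read 3214 in ileum germ-free and 3009 in ileum wild type, against 3687 in colon germ-free and 2854 in colon wild type. Ocln read 1848 in ileum germ-free and 1713 in ileum wild type, against 2461 in colon germ-free and 2061 in colon wild type. The 4 arrays of Cldn12 and of the second Ocln probe set, which read 1651 in ileum germ-free, 1547 in ileum wild type, 1642 in colon germ-free and 1390 in colon wild type, overlapped between the regions. The brighter Ocln probe set had log2 differences of -0.41 in germ-free and -0.27 in wild type mice. The Cldn12 log2 difference was -0.20 in germ-free mice, but 0.08 with median scaling, and 0.08 in wild type mice. Its dimmer probe set read 506 in ileum germ-free and 635 in ileum wild type, against 737 in colon germ-free and 486 in colon wild type, with log2 differences of -0.54 in germ-free and 0.39 in wild type mice.

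**Figure D2:**
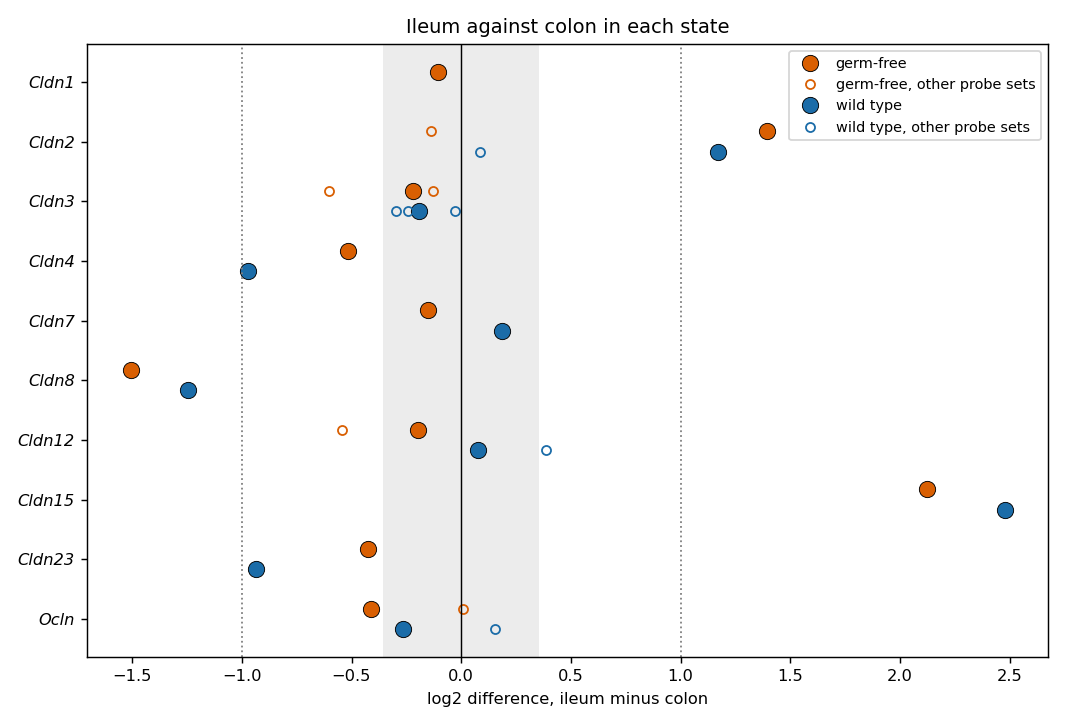
Log2 difference, ileum minus colon, of each gene in germ-free mice and in wild type mice (filled points, brightest probe set, with Cldn1 a bound) and of its other probe sets above the floor on all arrays (open points). Dotted lines mark 2-fold and the grey band the larger SD between probe sets of a gene, 0.36. Cldn15, Cldn2 and Cldn8 lie past 2-fold in both states, while the open points of Cldn2 lie near 0.

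At least 2-fold, 2 of the 10 measured genes were higher in ileum in germ-free mice, where 7.37% of all genes were, and 1 was lower, where 5.88% were, against 13.2% in either direction. In wild type mice 2 of 9 measured genes were higher, where 6.04% of all genes were, and 1 was lower, where 5.93% were, against 12% in either direction. The same 3 genes, Cldn15, Cldn2 and Cldn8, were past 2-fold in both states. Of all 11555 genes measured in both, 1582 were past 2-fold in germ-free and 1414 in wild type mice, and 894 in both in the same direction, 56.5% and 63.2% of those lists. The median log2 difference of the claudins and occludin was -0.21 in germ-free and -0.19 in wild type mice, where that of all measured genes was 0.04 and -0.01.

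A test was possible by fitting region and microbial state as additive terms in limma over all 4 arrays, 2 against 2 for each term. It treats the regional difference as equal in both states, and it was added after the data were seen. Its error for a gene is the departure of the 4 arrays from that additive pattern, moderated mostly by the spread over all genes. Its p-values therefore hold no spread between mice or between repeat arrays of a group. By this fit 5 of 9 tested genes differed between ileum and colon at an adjusted p below 0.05, where 19.8% of 11671 genes did. Cldn15 rose in ileum by a log2 value of 2.30 (SE 0.17, adjusted p = 5.7e-06) and Cldn2 by 1.28 (SE 0.13, adjusted p = 4.6e-05). Cldn8 was lower there, at -1.38 (SE 0.17, adjusted p = 0.00023), as were Cldn23, at -0.68 (SE 0.16, adjusted p = 0.010), and Cldn4, at -0.74 (SE 0.23, adjusted p = 0.042). With median scaling of the arrays, Cldn23 (adjusted p = 0.11) and Cldn4 (adjusted p = 0.051) no longer passed. Cldn3 (-0.21, SE 0.11), Ocln (-0.34, SE 0.14), Cldn12 (-0.06, SE 0.13) and Cldn7 (0.02, SE 0.13) did not pass, which does not show that they were equal.

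By its title the study set germ-free against wild type intestinal epithelium, and none of the claudins nor occludin was 2-fold different between germ-free and wild type epithelium. By brightest probe set, the widest differences were a lower Cldn4 and a higher Cldn8 on the germ-free arrays, in colon more than in ileum by value, followed by a lower Cldn15 in ileum and a higher Cldn12 in colon. Cldn3, Cldn7 and Ocln lay within 0.26 log2 of 0 in both regions by their brightest probe sets, but with median scaling Cldn3 had -0.37 in colon.

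Cldn4 had a log2 difference, germ-free against wild type, of -0.32 in ileum (343 against 429) and -0.78 in colon (491 against 841, 1.71-fold lower). Cldn8 had 0.32 in ileum (668 against 537) and 0.57 in colon (1897 against 1274, 1.49-fold higher). Both genes went the same way in both regions. Each has 1 probe set. In colon, 732 of 11746 measured genes had a lower value than Cldn4 and 765 a higher one than Cldn8.

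Cldn15 had a log2 difference of -0.42 in ileum (1953 in germ-free against 2604 in wild type). In colon it was -0.06 (448 against 467), and 0.17 in the values as deposited. In ileum 796 of 11750 measured genes had a lower value. Cldn2 had 0.04 in ileum, which turned to -0.05 in the values as deposited, and -0.19 in colon by its brighter probe set, and its dimmer one had -0.52 and -0.30. By brightest probe set, Cldn23 had the widest gap between regions, at 0.21 in ileum (2043 against 1767) and -0.30 in colon (2744 against 3378), a gap of -0.51 log2 between the colon and the ileum difference. The second probe set of Cldn12 had a wider one, with -0.33 in ileum and 0.60 in colon. The Cldn23 gap was not tested, and each of the Cldn23 values was smaller than the SD between probe sets in its comparison.

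Probe sets of 1 gene were set side by side for the better covered genes. They share the captured cells, RNA and amplification of their array, so their spread holds none of that error and none between mice. The 4 Cldn3 probe sets were all lower on the germ-free array in both regions, by log2 differences between -0.74 and -0.06 in ileum and between -0.27 and -0.03 in colon. The value of -0.74 came from the dimmest of them, at 1370.1 in ileum germ-free against 2281 in ileum wild type. The 2 Ocln probe sets were near identical, at 0.11 and 0.09 in ileum and 0.26 and 0.24 in colon. The 2 Cldn12 probe sets were both higher in colon germ-free, at 0.37 and 0.60, but had opposite signs in ileum, at 0.10 and -0.33. Over 2647 genes with 2 bright probe sets the SD between them was 0.23 in ileum and 0.32 in colon.

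**Figure D3:**
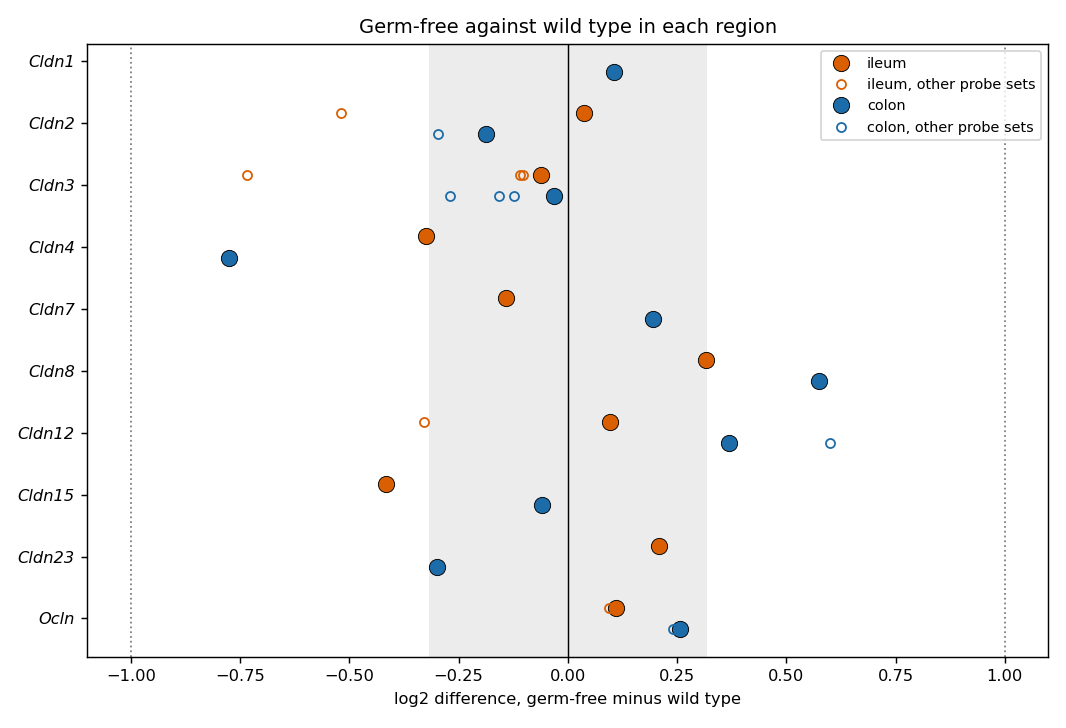
Log2 difference, germ-free minus wild type, of each gene in ileum and in colon (filled points, brightest probe set, with the colon value of Cldn1 a bound) and of its other probe sets above the floor on all arrays (open points). Dotted lines mark 2-fold and the grey band the larger SD between probe sets of a gene, 0.32. No point reaches 2-fold, and Cldn4 and Cldn8 in colon lie farthest from 0 among the filled points.

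Past 2-fold were 0 of 9 measured genes in ileum, where 0.928% of all 11750 genes were (0.23% higher, 0.698% lower), and 0 of 10 in colon, where 4.52% of all 11746 genes were (1.29% higher, 3.23% lower). The median log2 difference of the claudins and occludin was 0.04 in either region, against 0.03 and -0.01 for all measured genes in ileum and colon. In the additive limma fit, 0 of 9 tested genes differed between germ-free and wild type at an adjusted p below 0.05, where 0.0685% of all genes did, and 2 of 9 had an unadjusted p below 0.05, where 722 of 11671 genes did. Those 2 were Cldn8 (log2 0.45, SE 0.17, adjusted p = 0.75) and Cldn4 (log2 -0.55, SE 0.23, adjusted p = 0.76). Cldn15 had -0.24 (SE 0.17, adjusted p = 0.86) and Cldn12 0.23 (SE 0.13, adjusted p = 0.81) over both regions.

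Other measures moved with the germ-free state on the same arrays. The 18S ribosomal RNA controls had a median log2 difference of -0.93 in ileum and -1.23 in colon, and the ratio of 5′ to 3′ control probe sets of Gapdh, a measure of RNA integrity, had a log2 difference of -1.10 in ileum and -0.48 in colon. That of Actb had -1.20 in ileum and -0.12 in colon, and that of pyruvate carboxylase -0.28 in ileum and -0.43 in colon. In colon, 5 of 11 measured enterocyte markers and 2 of 11 measured crypt and stem cell markers were past 2-fold and higher in germ-free mice, and 2 of 10 colonocyte markers were lower. Of the fibroblast and smooth muscle markers 5 of 14 measured in ileum were at least 2-fold lower, with sums of 11515 in ileum germ-free against 16780 in ileum wild type. Of 7 measured T and intraepithelial lymphocyte markers 2 were so in ileum, with sums of 1407 against 2207, and of 6 in colon also 2, with sums of 986 against 1486. Of 5 measured Paneth cell markers in ileum all were lower, 2 past 2-fold, with sums of 12118 in ileum germ-free against 18861 in ileum wild type. In colon all 6 measured endothelial markers were lower, 2 past 2-fold, with sums of 604 in colon germ-free against 1171 in colon wild type, and 2 of 6 tuft cell markers were lower past 2-fold. Between the regions, the 18S controls had a median log2 difference of 0.84 in germ-free and 0.43 in wild type mice, and the 5′ to 3′ measure of Gapdh one of 0.01 and 0.64. That of pyruvate carboxylase had the opposite sign, at -0.14 in germ-free and -0.29 in wild type mice. The 5′ to 3′ measure of Actb was higher in ileum by 0.38 in germ-free and 1.46 in wild type mice. The fibroblast and smooth muscle markers summed to 16780 in ileum wild type against 9475 in colon wild type. Mylk (6893 against 4353), Acta2 (3137 against 1465) and Rgs5 (2632 against 523) had the widest gaps in intensity. Of 14 measured, 10 were higher in ileum and 4 lower, namely Col1a1, Col1a2, Col3a1 and Pdgfra. The part of these measures in the claudin and occludin values was not tested. In pooled captures, fewer cells of a type and less RNA per cell cannot be told apart.

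Among the other proteins of the tight junction, 2 of the 3 angulins, which recruit tricellulin to the corners where cells meet, gave the widest regional contrasts. Lsr (angulin-1) read 1537 in ileum germ-free and 2114 in ileum wild type, against 153 in colon germ-free and 184 in colon wild type, a log2 difference of 3.33 in germ-free and 3.52 in wild type mice. Ildr1 (angulin-2) ran the opposite way, at 10.7 in ileum germ-free and 21.0 in ileum wild type, both below the floor, against 399 in colon germ-free and 464 in colon wild type, at least 6.39-fold and 7.43-fold lower in ileum. Ildr2 (angulin-3) read 98.3 in ileum germ-free and 90.2 in ileum wild type, against 62.2 in colon germ-free, just below the floor, and 92.2 in colon wild type, and did not pass the limma fit (log2 0.31, SE 0.26, adjusted p = 0.47). Marveld2, tricellulin itself and the chromosomal neighbour of Ocln, read 1627 in ileum germ-free and 1717 in ileum wild type, against 1877 in colon germ-free and 1532 in colon wild type, with no separation of the regions. Each of the Lsr and Ildr1 values rests on 1 probe set, since the second Lsr probe set was below the floor on every array.

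In the list of 33 tight junction partners, 30 matched a gene here and 28 entered the limma fit, of which 1 was higher in ileum (Lsr, log2 3.42, SE 0.21, adjusted p = 1.1e-06) and 3 were lower, where 19.8% of all genes passed in either direction. The lower ones were Ildr1 (adjusted p = 4.8e-05), the adhesion receptor Cxadr (log2 -0.90, SE 0.15, adjusted p = 0.0013) and the polarity kinase Prkci (log2 -0.55, SE 0.16, adjusted p = 0.030). Ildr1 entered the fit through its 2 colon arrays alone. Both of its ileum values were set to the floor, which removes their spread, so its p-value is not read as support. The other Cxadr probe sets did not share the size of that difference, at 0.15 and -0.12 in germ-free and -0.24 and -0.27 in wild type mice for those measured on all arrays. The scaffold Tjp1 (ZO-1) read 2216 in ileum germ-free and 2481 in ileum wild type, against 2641 in colon germ-free and 2095 in colon wild type. Past 2-fold, 1 partner of 29 was higher and 2 lower in ileum in germ-free mice, where 13.2% of all genes were past it. In wild type mice 2 of 28 were higher and 1 lower, where 12% of all genes were past it, with Amotl2 higher at 171 in ileum against 78.2 in colon. The median of the list was 0.02 and 0.06, near that of all genes.

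**Figure D4:**
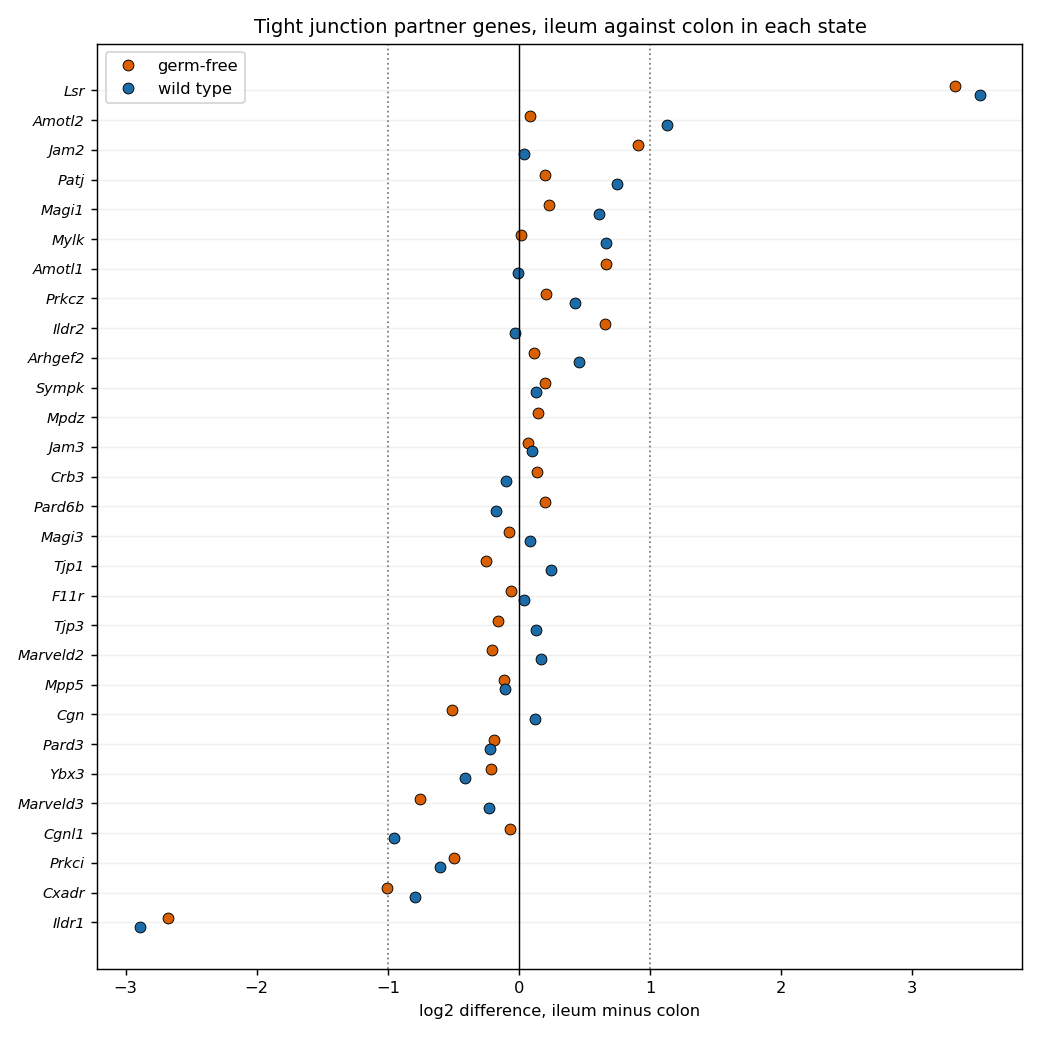
Log2 difference, ileum minus colon, of the tight junction partner genes above the floor on at least 1 compared array, in germ-free and in wild type mice, 1 point per state, with dotted lines at 2-fold. Lsr stands far to the right at 3.33 and 3.52 and Ildr1, as a bound, far to the left at -2.68 and -2.89, while most partners lie within 1 log2 of 0.

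Between germ-free and wild type epithelium 0 of 28 tight junction partners were past 2-fold in ileum, where 0.928% of all genes were. In colon 0 of 28 were, where 4.52% of all genes were. In the limma fit 0 of 28 passed, where 0.0685% of all genes did. An unadjusted limma p below 0.05 was found for 1 of them, where 722 of 11671 genes had one. It was the polarity kinase Prkcz, at 0.042 (log2 -0.45, SE 0.19). Amotl2, which binds junctional scaffolds, came nearest to 2-fold, at 156 in colon germ-free against 78.2 in colon wild type, just inside the threshold. Prkcz read 624 in ileum germ-free against 920 in ileum wild type, and 540 in colon germ-free against 684 in colon wild type. Jam2, a junctional adhesion molecule, had a log2 difference of at most -0.67 in colon, with the germ-free array below the floor.

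The list of other claudins also held claudin-like genes such as Cldnd1. Of its 25 symbols 16 matched, and only 3 were above the floor on at least 1 array. They were the claudin-like Cldnd1 and the claudins Cldn22 and Cldn14. Cldnd1 read 1153 in ileum germ-free, 1180.4 in ileum wild type, 985 in colon germ-free and 790.4 in colon wild type. Cldn22 lay between 86.2 and 125, and Cldn14 between 58.0 and 91.3. None of these 3 was past 2-fold in any of the 4 comparisons or passed the limma fit for either term. Between the states 0.928% of all genes were past 2-fold in ileum and 4.52% in colon. Between the regions 13.2% were in germ-free and 12% in wild type mice. In the limma fit 19.8% of all genes passed for region and 0.0685% for state. Cldn18, known from stomach and lung, and Cldn11, known from myelin and testis, were below the floor on all 4 arrays.

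Adherens junction and desmosome genes had a median log2 difference in the limma fit, ileum against colon, of 0.03, as had all genes. Of 17 tested, 3 passed, a share near the 19.8% of all genes. Of these, 2 were higher in ileum by the limma fit, the desmosomal plakophilin Pkp2 (log2 0.71, SE 0.15, adjusted p = 0.0081) and Nectin3 (log2 0.59, SE 0.14, adjusted p = 0.011), and 1 was lower, the nectin-binding scaffold Afdn (log2 -0.65, SE 0.15, adjusted p = 0.010). For the germ-free term 0 of 17 passed, where 0.0685% of all genes did. The plakophilin Pkp3 alone had an unadjusted p below 0.05 (log2 0.45, SE 0.16, limma adjusted p = 0.69), where 722 of 11671 genes had one. No gene of the list was past 2-fold in any of the 4 comparisons. Of all genes, 0.928% in ileum and 4.52% in colon were past it between the states. Between the regions 13.2% of all genes were in germ-free mice and 12% in wild type mice. E-cadherin, Cdh1, read 6954 in ileum germ-free and 7165 in ileum wild type, against 8029 in colon germ-free and 7392 in colon wild type. Epcam, which binds claudin-7 and stabilises it, read 10598 in ileum germ-free and 11533 in ileum wild type, against 10951 in colon germ-free and 9687 in colon wild type.

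Among 15 tested genes of claudin trafficking and regulation, 4 were lower in ileum and 0 higher, where 1216 of all 11671 genes were lower and 1099 higher, with a median log2 difference of -0.18 against 0.03 for all genes. They were Klf4, a factor of differentiated surface cells (log2 -0.75, SE 0.12, adjusted p = 0.00092), the vitamin D receptor Vdr (log2 -0.55, SE 0.12, adjusted p = 0.0083), the kinase Wnk4 (log2 -1.11, SE 0.28, adjusted p = 0.018) and the membrane protease St14 (log2 -0.48, SE 0.15, adjusted p = 0.049). St14 encodes matriptase, which cleaves Epcam. Cdx2, a known regulator of claudin-2, read 3154 in ileum germ-free and 2801 in ileum wild type, against 3140 in colon germ-free and 2415 in colon wild type, and did not pass. For the germ-free term 0 of 15 passed, where 0.0685% of all genes did. An unadjusted limma p below 0.05 was found for 0 of them, where 722 of 11671 genes had one.

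Claudin channels work beside transporters that use the ions they return. Of 9 such genes tested, 2 were higher and 5 lower in ileum, where 19.8% of all genes passed in either direction, and the median log2 difference was -0.55. Scnn1b (log2 -0.46, SE 0.24, adjusted p = 0.23) and Atp1b1 (log2 -0.10, SE 0.12, adjusted p = 0.62) did not pass. Scnn1b read 30.7 in ileum germ-free and 29.6 in ileum wild type, against 104 in colon germ-free and 71.0 in colon wild type. Both ileum values were set to the floor, which removes their spread. The log2 value of Scnn1b is therefore a bound, and its p-value is not read further. A second Slc5a1 probe set gave 0.71 in germ-free and 1.18 in wild type mice. The sodium-glucose transporter Slc5a1 read 7318 in ileum germ-free and 6989 in ileum wild type, against 3128 in colon germ-free and 2404 in colon wild type (log2 1.38, SE 0.13, adjusted p = 3.0e-05), and the chloride channel Cftr was higher by 1.31 (SE 0.17, adjusted p = 0.00025). The sodium-proton exchanger Slc9a3 read 168 in ileum germ-free and 249 in ileum wild type, against 1632 in colon germ-free and 1937 in colon wild type (log2 -3.12, SE 0.21, adjusted p = 2.1e-06). Its dimmer probe set was above the floor in colon germ-free alone, at 111, against 18.3 in ileum germ-free. That gave a log2 difference of at most -0.83 in germ-free mice and none in wild type mice. Slc9a2 (-1.33, adjusted p = 9.9e-05), the sodium channel subunit Scnn1a (-1.26, adjusted p = 0.0016), Slc12a2 (-0.55, adjusted p = 0.0074) and Slc26a3 (-0.55, adjusted p = 0.029) were also lower in ileum. For the germ-free term 0 of 9 passed, where 0.0685% of all genes did. Scnn1a alone had an unadjusted limma p below 0.05 (0.035, log2 0.51), where 722 of 11671 genes had one.

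The 3 genes with the widest range over the arrays were Cldn15, Cldn8 and Cldn2, and for each the nearest patterns were sought among 7431 named genes whose brightest array was above the pooled 75th percentile, as the smallest distance between centred log2 profiles over the 4 arrays. Values below the floor were set to the floor before the distances were taken. For Cldn15 they were Slitrk6 (distance 0.20), Lgals2 (0.22) and Myo7a (0.22). Slitrk6 read 229 in ileum germ-free and 317 in ileum wild type, against 13.5 in colon germ-free and 12.7 in colon wild type. Both of its colon values were set to the floor, so its rank as nearest rests on floored values. Lgals2 read 2539 in ileum germ-free and 3196 in ileum wild type, against 489 in colon germ-free and 618 in colon wild type. For Cldn8 they were Phldb1 (0.13), Scnn1a (0.15) and Fam219a (0.15), and Scnn1a, the alpha subunit of the epithelial sodium channel, read 415 in ileum germ-free and 332 in ileum wild type, against 1139.9 in colon germ-free and 697 in colon wild type. For Cldn2 they were Erg28 (0.07), Tmem144 (0.07) and Pcbd1 (0.09). Each likeness rests on 4 arrays.

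Cldn4 and Cldn3 lie next to each other among the coding genes of chromosome 5 in RefSeq GRCm38.p6, and Cldn4 had log2 differences, ileum against colon, of -0.52 in germ-free and -0.97 in wild type mice where Cldn3 had -0.22 and -0.19. Cldn8 neighbours Cldn17, which is not analysed here, and Cldn1 neighbours Cldn16, which lay below the floor on all 4 arrays.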

How the data were processed

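The authors computed linear-scale intensity values for each probe set in dCHIP2004, per the labels and design text. Which of its options they used is not given in the sources used here. Per the labels' protocols, 40 ng of RNA was amplified in 2 rounds for each of 4 arrays. Above their medians the deposited arrays differed by up to 0.32 log2. After removal of 64 control probe sets, log2 values were therefore quantile-normalized and floored at the pooled median, 62.4. A gene with 1 annotated symbol was represented by its brightest probe set and was measured if 1 compared array was above the floor. With 1 array per group, pairwise differences carry no p-value, and precision is limited by having 4 arrays. The additive fit used limma 3.58.1 in R 4.3.3 (lmFit, eBayes with trend, Benjamini-Hochberg) on genes above the floor on at least 2 arrays. The steps were tested on simulated data. By rule, all 10 genes are named, with the members of each pathway list past 2-fold (else the 3 of largest difference) and 3 genes nearest in pattern. Genes past the limma fit, single cell type markers and a few others (Tjp1, Marveld2, Prkcz, Jam2, Cdh1, Epcam, Cdx2, Cldn5, Cldn11, Cldn16, Cldn18) were named after their values were seen. The genes, lists and tests were chosen with earlier results of these data known. Alternatives were 2 other scalings, 3 floors, 2 choices of probe set and 2 folds.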

Additional observations from a re-analysis of the deposited data

How the results depend on the processing

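The calls that Cldn15, Cldn2 and Cldn8 were past 2-fold between ileum and colon held under every alternative scaling and floor tried, but Cldn2 fell inside 2-fold with the mean of its 2 probe sets (log2 0.63 in germ-free and 0.63 in wild type mice). With a 3-fold threshold 1 gene was called in germ-free and 1 in wild type mice (Cldn15), and with 1.5-fold 5 were called in wild type mice between the regions and 1 (Cldn4) in colon between the states. In the additive limma fit 5 genes differed by region in all alternatives run but median scaling, where 3 did (Cldn15, Cldn2 and Cldn8), and 0 differed by state in any of them. Scaling moved the split of all genes past 2-fold in colon germ-free against wild type. It was 152 higher and 379 lower here (median of all genes -0.01), 296 and 275 in the values as deposited (median 0.09), and 116 and 528 with median scaling (median -0.16). For the regions in germ-free mice it was 883 higher and 705 lower here, 627 and 1001 as deposited (median -0.11), and 995 and 612 with median scaling (median 0.15). With median scaling Cldn7 in colon, at 0.20 here, was -0.14, and Cldn3, at -0.03 here, was -0.37.

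Of the other lists, with no floor the counts past 2-fold for the other claudins were 3 in ileum and 3 in colon between the states, and 5 in germ-free and 9 in wild type mice between the regions, all from probe sets below the floor used here. Tight junction partners had 1 in colon between the states as deposited and 1 with the mean of probe sets, and 1 in wild type mice between the regions under a 75th percentile floor. Adherens junction and desmosome genes had 1 between the regions in germ-free mice with no floor, 1 under a 25th percentile floor and 1 with the mean of probe sets, which also gave 1 in wild type mice. Claudin regulation genes had 1 between the regions in germ-free mice as deposited and 1 with median scaling, and 0 in wild type mice under a 75th percentile floor. Transporters had 1 between the states in ileum with no floor, and 1 in colon with no floor or a 25th percentile floor. Where no cause is named, the cause was not tested. By replicate number, no paired analysis was possible because each group has 1 array. The additive fit and the 2 regional pairs match arrays by state or region instead.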
